A study of Mus musculus with 48 samples.

Results

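The proteasome subunits and the ubiquitin conjugating enzymes were described in mouse hippocampus and amygdala. The list held every gene whose symbol begins with Psma, Psmb, Psmc, Psmd, Psme or Ube2 and that a probe set of the array names alone. It came to 63 genes of 8251, read by 82 probe sets of 12422. Of these genes, 42 carried a Psm symbol and 21 a Ube2 symbol. Where a gene had several probe sets, which was so for 14 genes, the brightest was used, and it was the same one in both tissues. Another 5 probe sets that name several genes, among them those for Psme2 and Ube2l3, were left out. Psmc3ip, a recombination factor, and Psme3ip1 meet the symbol rule without being subunits of the proteasome.

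The study, on associative and nonassociative learning, measured total RNA with single-colour arrays. There were 26 hippocampus arrays (8 CS, 8 FC and 10 NH) and 22 amygdala arrays (6 CS, 6 FC and 10 NH). The labels give only the codes CS, FC and NH, and name neither strain nor age nor the time of dissection. They can be read as conditioned stimulus, fear conditioned and naive home cage, but that reading is not spelled out, so the codes are kept here. The labels do not state whether an array holds the RNA of 1 animal or of several, so the p-values measure the spread between arrays. The title numbers of all 22 amygdala arrays begin with the batch digit, and in 8 of them the rest joins the title numbers of 2 hippocampus arrays of the same arm (CS 21523 and the hippocampus arrays CS 15 and CS 23, for example). These titles can be read as pools of 2 animals that also gave hippocampus arrays, which the labels do not state. Each array was processed in 1 of 7 batches, with batches 1 to 3 holding amygdala and batches 4 to 7 holding hippocampus, so tissue and batch cannot be told apart. Batch 1 (6 arrays) and batch 7 (6 arrays) hold NH arrays alone. Every difference from NH with batch as a block therefore rests on 4 NH arrays in each tissue. Neurod6, a transcription factor of pyramidal neurons, lay at a mean within-array percentile of 82.2 in hippocampus and 35.0 in amygdala. Markers of oligodendrocytes (Mog, Mobp, Mbp) and of choroid plexus (Ttr, Kl) had percentiles in hippocampus whose lowest array exceeded the highest amygdala array. The other markers of these lists did not separate: Mag was at 95.7 and 96.2, Folr1 at 57.2 and 54.9 and Igf2 at 94.9 and 96.0 in hippocampus and amygdala. Fos, an immediate early gene of active neurons, rose in CS and FC in both tissues, by 0.98 (SE 0.15) and 1.09 (SE 0.15) on the log2 scale over NH in hippocampus and by 1.15 (SE 0.15) and 1.53 (SE 0.15) in amygdala (limma, adjusted p at most 0.00433).

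The proteasome is the barrel-shaped protease that degrades proteins tagged with ubiquitin. Its 20S core stacks rings of alpha subunits, which gate the entry, and rings of beta subunits, some of which cut. The 19S cap holds a ring of ATPases (Psmc), which unfold the substrate, and non-ATPase subunits (Psmd), which bind and remove ubiquitin. A ubiquitin conjugating enzyme, or E2 (Ube2), receives ubiquitin from an activating enzyme and passes it on, with a ligase, to the substrate. Protein degradation by this route takes part in the remodelling of synapses, and it has been studied in hippocampus and amygdala for its part in memory.

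Because most core and cap genes moved together from array to array (given further on), promoter sequence is shown for 4 genes. They are the 3 genes with a promoter entry that followed the others most closely, Psma3, Psmc2 and Psma6, and Psmd2, which ran opposite to them. Each sequence is the first 250 bases of the promoter entry, read as those before a start of transcription. The windows of Psmc2 and Psma6 end just before the listed gene. Those of Psma3 and Psmd2 lie inside the listed gene, which begins at chr12:70969283 and chr16:20651122, so they do not precede the listed start. Sequences are from RefSeq, build GRCm38.p6, all on the + strand, at chr12:70974373-70974622, chr5:21785025-21785274, chr12:55383972-55384221 and chr16:20651402-20651651. Capitals mark matches on either strand to the CCAAT box (CCAAT) and to a core bound by ETS factors (CCGGAAG); the core of the antioxidant response element (TGACNNNGC) has no match in these 4.
Psma3: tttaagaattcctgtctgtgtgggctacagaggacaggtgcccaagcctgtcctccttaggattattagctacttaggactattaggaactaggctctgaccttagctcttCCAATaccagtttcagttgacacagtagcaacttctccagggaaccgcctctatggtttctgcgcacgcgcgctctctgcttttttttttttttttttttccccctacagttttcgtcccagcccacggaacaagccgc
Psmc2: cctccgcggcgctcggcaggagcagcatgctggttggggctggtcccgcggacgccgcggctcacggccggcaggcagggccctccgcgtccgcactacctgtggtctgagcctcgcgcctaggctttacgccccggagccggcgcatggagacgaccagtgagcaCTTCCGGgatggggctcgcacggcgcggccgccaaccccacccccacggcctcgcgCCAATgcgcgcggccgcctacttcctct
Psma6: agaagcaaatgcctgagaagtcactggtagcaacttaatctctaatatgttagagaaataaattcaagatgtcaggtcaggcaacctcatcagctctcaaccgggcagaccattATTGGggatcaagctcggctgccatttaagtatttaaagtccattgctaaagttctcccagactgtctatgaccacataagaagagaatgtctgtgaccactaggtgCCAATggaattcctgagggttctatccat
Psmd2: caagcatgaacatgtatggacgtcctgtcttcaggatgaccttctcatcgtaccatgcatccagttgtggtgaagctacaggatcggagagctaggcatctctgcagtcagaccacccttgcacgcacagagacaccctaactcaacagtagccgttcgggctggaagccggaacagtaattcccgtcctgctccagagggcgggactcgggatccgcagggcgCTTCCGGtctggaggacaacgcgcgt
Psma3 and Psma6 held CCAAT matches, Psmc2 held both a CCAAT and an ETS match, and Psmd2 held an ETS match alone. Over the 34 proteasome genes with a promoter entry, the ETS core was found in 10 (29.4%), against 3 of 16 Ube2 genes (18.8%) and 7.05% of all 27025 promoters of the same length. The CCAAT box was found in 13 of 34 proteasome genes (38.2%), 5 of 16 Ube2 genes (31.3%) and 34.5% of all promoters. The antioxidant core was found in 5 of 34 proteasome genes (14.7%), among them Psmb5 and Psmb6, in 1 of 16 Ube2 genes (6.25%, Ube2v1), and in 10.2% of all promoters. The median GC content of these windows was 56.6% for the proteasome genes, 64.0% for the Ube2 genes and 52.0% for all, so the lists also differ in base composition. These matches are letters in a window and say nothing of what binds there.

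Most members were bright. Within an array, the median member with a Psm symbol lay at the 88.0th percentile of all probe sets in hippocampus and the 86.9th in amygdala, and the median Ube2 member at 77.3 and 80.9. Of the 63 genes, 55 were above the filter that left out the dimmest 40% of probe sets, 36 with a Psm symbol and 19 Ube2, in each tissue. The 8 below it were Psmb8, Psmb9, Psmc3ip, Psmc4, Psmd10, Psme4, Ube2t and Ube2w. Psmb8 and Psmb9, cutting subunits of the immunoproteasome that interferon induces, lay at percentiles 34.5 and 34.3 in hippocampus and 35.1 and 30.9 in amygdala. Their partner Psmb10 lay at 88.5 and 89.8, but percentiles of different probe sets also carry the binding strength of each probe.

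No member passed the test in any of the 6 comparisons within a tissue (limma with batch as a block, Benjamini-Hochberg adjusted p under 0.05 over 7453 probe sets). The background was low too. Among all probe sets tested, 1 passed in hippocampus for CS against NH (0.0134%), 1 for FC against NH (0.0134%) and 0 for FC against CS (0%). In amygdala 1 passed for CS against NH (0.0134%), 7 for FC against NH (0.0939%) and 0 for FC against CS (0%). A count of 0 of 55 members lies at this background and is no result about the members. At an unadjusted p under 0.05, 0 members were found in the hippocampus comparisons, and 2, 2 and 0 in amygdala for CS against NH, FC against NH and FC against CS. The 2 members were 3.64% of those tested, against 3.92% of all probe sets for CS against NH and 5.15% for FC against NH in amygdala, so they lie at or below this background. In hippocampus the shares over all probe sets were 1.45%, 2.27% and 0.765% for CS against NH, FC against NH and FC against CS.

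Within this fit, 95% intervals bound the difference of each of the 55 members tested, gene by gene and without adjustment for their number. They do not carry the choice of model or of arrays, and the members below the filter have none. The 95% interval of the difference included 0 for all 55 members in the 3 hippocampus comparisons and in FC against CS in amygdala, and for 53 of 55 in the other 2. No interval reached beyond 0.56 on the log2 scale, a 1.47-fold difference, which was the bound for Ube2e1 in FC against NH in hippocampus. In amygdala the farthest bound was 0.41 (1.33-fold), for Psmc2 in CS against NH. The median standard error of a difference lay between 0.06 and 0.08 log2 units.

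**Figure D1:**
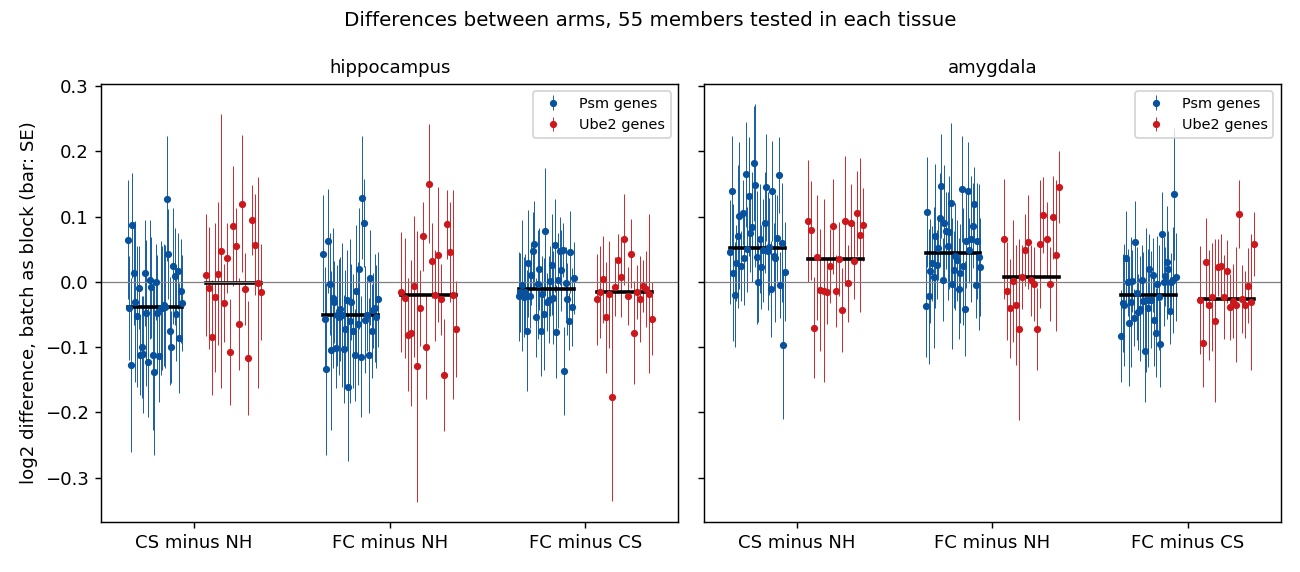
Log2 difference (y axis) of each member tested, with its standard error as a bar, for the 3 comparisons of arms in hippocampus (left) and amygdala (right); blue points are 36 Psm genes, red points 19 Ube2 genes and black lines their medians. Most Psm genes lie below 0 against NH in hippocampus and above 0 against NH in amygdala, with bars that mostly cross 0.

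In hippocampus the differences of the Psm genes from NH lay mostly below 0. For CS against NH 11 were higher and 25 lower (median -0.04), and for FC against NH 6 were higher and 30 lower (median -0.05), while all probe sets had medians of 0.00 and 50.5% and 49.7% higher. The Ube2 genes were more even, with 9 higher and 10 lower for CS (median 0.00) and 6 higher and 13 lower for FC (median -0.02). In amygdala the signs were the other way. There 31 Psm genes were higher and 5 lower for CS against NH (median 0.05), and 30 higher and 6 lower for FC against NH (median 0.04). Of all probe sets 53.8% and 55.2% were higher, with medians of 0.01 and 0.01. With quantile normalization these medians were smaller, at 0.02 for CS and 0.01 for FC. The Ube2 genes were higher in 12 and lower in 7 in both comparisons. FC against CS gave 15 higher and 21 lower Psm genes in hippocampus and 14 higher and 22 lower in amygdala. The members share arrays, and the comparisons with NH share the NH arrays, so these counts are not independent votes.

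By role, all 7 structural and cutting beta subunits were lower for FC against NH in hippocampus (median -0.05) and all 7 were higher for CS and for FC against NH in amygdala (medians 0.08 and 0.08). The 5 ATPases tested were all lower for FC against NH in hippocampus (median -0.06), and 4 of 5 were higher in both amygdala comparisons with NH. Of 11 non-ATPase subunits, 7 were lower for FC against NH in hippocampus and 9 higher in amygdala. Of 7 alpha subunits, 5 were lower in the former and 5 higher in the latter. None of these differences passed the test.

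The mean of the 35 proteasome genes tested (the 36 without Psme3ip1) ran from 8.28 to 8.61 log2 units in hippocampus and from 7.74 to 8.17 in amygdala, and the arms overlapped throughout. The highest hippocampus array was NH 100 in batch 4, and the highest amygdala array was CS 23139 in batch 2. Without NH 100, the median of the Psm genes in hippocampus turned to 0.04 for CS against NH (29 of 36 higher) and 0.03 for FC against NH (24 higher). Without CS 23139, the median in amygdala was 0.00 for CS against NH (17 of 36 higher) and FC against CS turned to 0.04 (31 higher). For FC against NH in amygdala the median of the Psm genes changed sign in 0 of 22 fits that left out 1 array, from 0.03 to 0.08, the highest without FC 21927 (33 of 36 higher). NH 100 also had the largest 3' to 5' log2 signal difference of the Actb control probe sets in hippocampus (1.17) and of Gapdh (0.48), which are read as a measure of RNA integrity. CS 23139 had the largest Actb difference in amygdala (1.25), while its Gapdh difference was -0.04. The part of RNA integrity in the subunit levels was not tested.

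**Figure D2:**
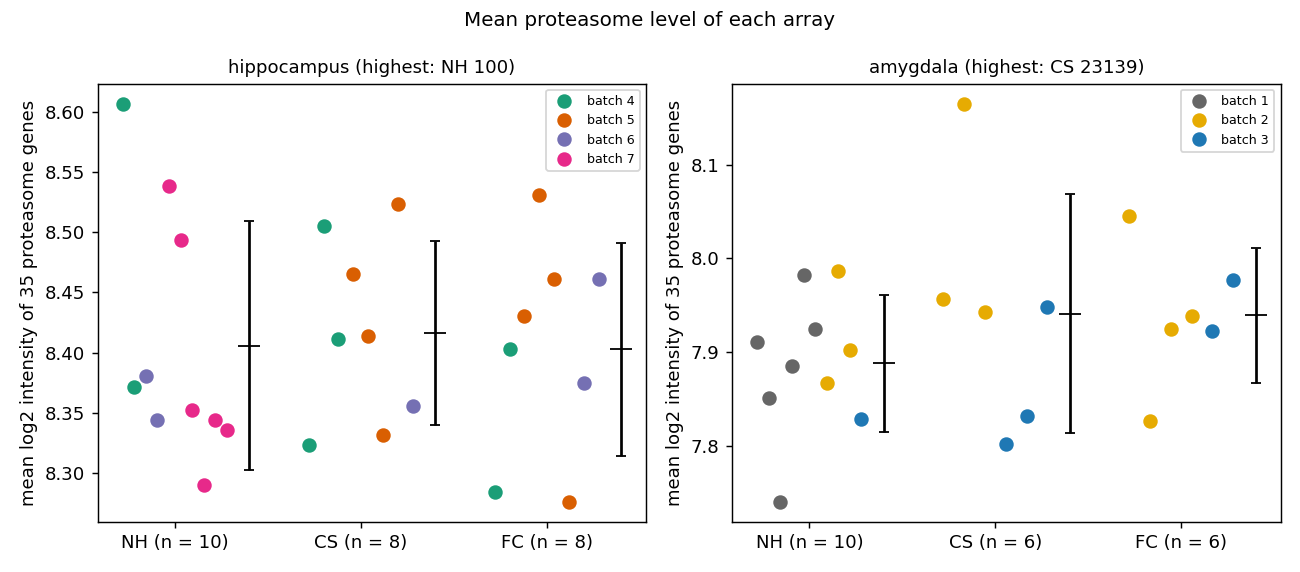
Mean log2 intensity of 35 proteasome genes (y axis) in each array, by arm (x axis), in hippocampus (left) and amygdala (right); colours are batches, and the black mark with bars beside each arm is the mean and SD over its arrays. The arms overlap, NH 100 at 8.61 is the highest hippocampus array and CS 23139 at 8.17 the highest amygdala array.

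In hippocampus, FC against NH gave 34 of 36 Psm genes lower in batch 4 (median -0.14, 2 arrays against 2) and 26 of 36 higher in batch 6 (median 0.06, 2 against 2). All probe sets leaned the same way in each, with 44.0% higher in batch 4 and 60.8% in batch 6. CS against NH had medians below 0 in both, -0.08 in batch 4 (28 of 36 lower, 3 against 2) and -0.02 in batch 6 (19 of 36 lower, 1 against 2). Of all probe sets 44.5% and 55.3% were higher there. Batch 6 holds 1 CS array, so its comparison of CS with NH turns on that array. In amygdala, FC against CS gave 33 of 36 lower in batch 2 (median -0.10, 4 against 3) and 34 of 36 higher in batch 3 (median 0.10, 2 against 3), where 48.4% and 59.2% of all probe sets were higher. CS against NH in amygdala kept its sign, with 34 of 36 higher in batch 2 (median 0.09) and 24 of 36 higher in batch 3 (median 0.04), as did FC against NH, with 22 higher in batch 2 (median 0.02) and 33 higher in batch 3 (median 0.13). Batch 3 holds 1 NH array, so both of its comparisons with NH turn on that array.

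**Figure D3:**
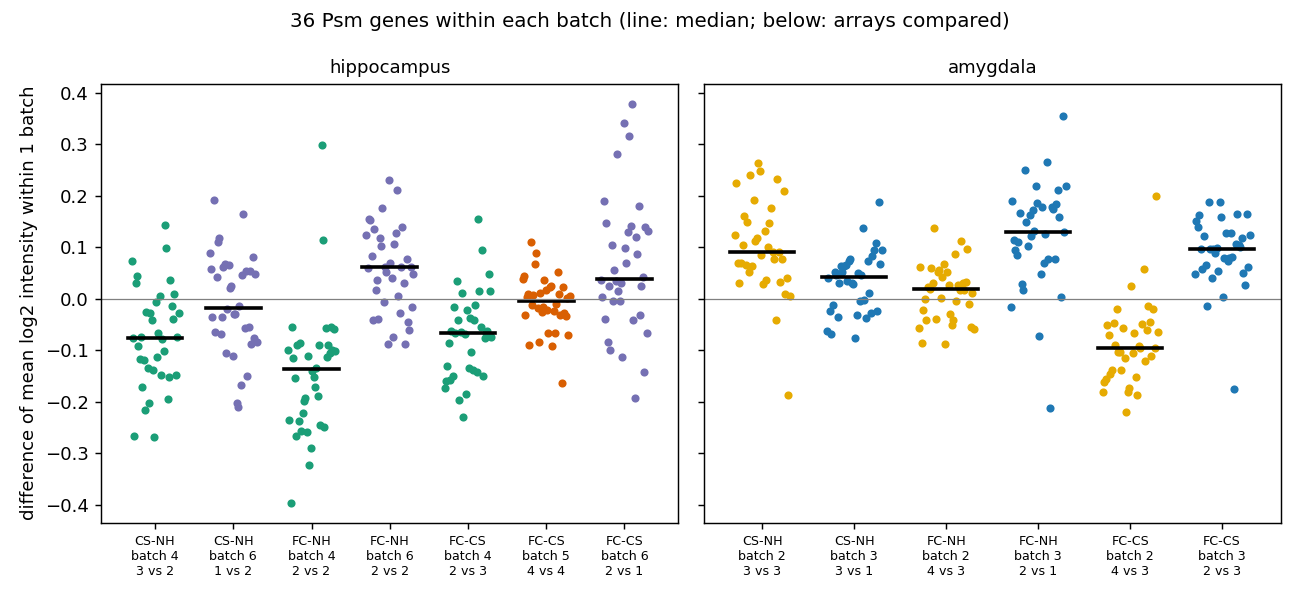
Difference of mean log2 intensity within 1 batch (y axis) for 36 Psm genes, by comparison and batch (x axis, with the number of arrays on each side), in hippocampus (left) and amygdala (right); black lines are medians. FC against NH in hippocampus lies below 0 in batch 4 and above 0 in batch 6, and FC against CS in amygdala lies below 0 in batch 2 and above 0 in batch 3.

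Arrays of different arms seldom separated within batches. The number of members whose arrays of 1 arm lay all on the same side of the other arm in every batch holding both was 0 of 55 in hippocampus for CS against NH, FC against NH and FC against CS, where all probe sets gave 3.02%, 3.49% and 0%. In amygdala it was 1, 0 and 0 of 55 for CS against NH, FC against NH and FC against CS, against 3.3%, 2.48% and 0.0805%. The 1 gene was Psmd13, a 19S cap subunit, and its arms touched: the lowest CS array exceeded the highest NH array by 0.00049 log2 units in batch 2 and by 0.00017 in batch 3, a tie at the digits printed here, so this separation carries no weight.

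Among the core subunits, Psma3, an alpha ring member, read 9.38, 9.46 and 9.89 (lowest, median and highest log2 intensity) in hippocampus NH, 9.24, 9.63 and 9.91 in CS and 9.18, 9.59 and 10.02 in FC. The 3 arms overlapped, and the fitted differences from NH were -0.13 (SE 0.13) for CS and -0.13 (SE 0.13) for FC. The medians of CS and FC were above that of NH while the fitted differences were below 0. Batch 5, which holds no NH array, had the highest CS and FC means (9.74 and 9.70), and in batch 4 the means were 9.41 in CS, 9.28 in FC and 9.68 in NH. Psmb3, a structural beta subunit, read 8.24, 8.48 and 8.65 in amygdala NH, 8.58, 8.72 and 8.93 in CS and 8.49, 8.75 and 8.86 in FC. These NH readings include batch 1, which holds no CS or FC array. Within batch 2 the means were 8.77 in CS, 8.67 in FC and 8.53 in NH, and both arms overlapped NH. In batch 3 they were 8.705, 8.80 and 8.65, the last from 1 array. The fitted differences from NH were 0.16 (SE 0.08) for CS and 0.15 (SE 0.08) for FC, with adjusted p of 0.942 and 0.894 (limma). In hippocampus the same gene gave -0.11 (SE 0.09) for CS and -0.05 (SE 0.09) for FC. Psmb5, which carries the chymotrypsin-like activity, gave 0.13 (SE 0.09) for CS against NH in amygdala and -0.05 (SE 0.11) in hippocampus.

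Psmb10, the immunoproteasome subunit bright enough to test, read 7.87, 8.07 and 8.12 in amygdala NH, 8.10, 8.19 and 8.29 in CS and 8.06, 8.14 and 8.22 in FC. CS was higher than NH by 0.11 (SE 0.05, unadjusted p = 0.0415, limma adjusted p = 0.942). In hippocampus it read 8.33, 8.42 and 8.84 in NH, 8.32, 8.41 and 8.59 in CS and 8.34, 8.43 and 8.50 in FC, where the 8.84 was array NH 100. The hippocampal differences from NH were -0.11 (SE 0.06) for CS and -0.10 (SE 0.06) for FC.

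Psma4 gave 0.09 (SE 0.08) for CS against NH in hippocampus and -0.02 (SE 0.08) in amygdala, and Psma1 gave 0.06 (SE 0.09) and 0.05 (SE 0.08). Psmb1, a structural beta subunit, gave -0.01 (SE 0.06) and 0.02 (SE 0.05). Psmb6, which cuts after acidic residues, gave -0.12 (SE 0.08) and 0.08 (SE 0.06). Psmb7, which cuts after basic residues, gave 0.00 (SE 0.09) and 0.08 (SE 0.08), and -0.08 (SE 0.07) for FC against CS in hippocampus.

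In the ATPase ring, Psmc1 came near the unadjusted threshold for CS against NH in amygdala, at 0.18 (SE 0.09, p = 0.0502, limma adjusted p = 0.942), with -0.01 (SE 0.08) in hippocampus and -0.11 (SE 0.08) for FC against CS in amygdala. Psmc2 read 8.09, 8.39 and 8.76 in hippocampus NH, 7.95, 8.33 and 8.54 in CS and 7.79, 8.34 and 8.68 in FC, with differences from NH of -0.11 (SE 0.11) and -0.16 (SE 0.11). In amygdala they were 0.15 (SE 0.13) and 0.12 (SE 0.12). The 3 arms overlapped in hippocampus. Psmc3 gave hippocampus differences of -0.14 (SE 0.13) and -0.06 (SE 0.13), and Psmc5 of 0.00 (SE 0.06) and -0.03 (SE 0.06).

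Among the non-ATPase cap subunits, Psmd8 had the smallest p of any member in amygdala. It read 6.76, 6.91 and 7.01 in NH, 6.84, 6.94 and 7.19 in CS and 6.84, 6.96 and 7.01 in FC. The arms overlapped, with CS higher by 0.16 (SE 0.06, p = 0.00952, adjusted p = 0.942) and FC by 0.12 (SE 0.06, p = 0.0475, adjusted p = 0.894, limma). Psmd4, a ubiquitin receptor of the cap, gave 0.14 (SE 0.08) for both CS and FC against NH in amygdala and -0.08 (SE 0.08) and -0.06 (SE 0.08) in hippocampus. Psmd1, a scaffold of the cap's base, gave -0.11 (SE 0.07) for CS and -0.11 (SE 0.07) for FC against NH in hippocampus. Psmd2 gave 0.13 (SE 0.10) and 0.13 (SE 0.09) there, and -0.10 (SE 0.07) for FC against CS in amygdala. Psmd3 gave 0.05 (SE 0.05) for FC against CS in hippocampus and 0.07 (SE 0.06) in amygdala. Psmd9 gave -0.06 (SE 0.04) for FC against CS in hippocampus. Psmd11 gave -0.01 (SE 0.10) for FC against NH in hippocampus and -0.01 (SE 0.08) in amygdala. Psmd14, the cap's deubiquitinase, gave -0.11 (SE 0.09) for FC against NH in hippocampus and 0.02 (SE 0.09) in amygdala. Psmd6 came nearest among the FC against CS differences in hippocampus, at -0.14 (SE 0.07, p = 0.0518, limma adjusted p near 1).

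Psmd5, a chaperone of cap assembly, was -0.10 (SE 0.05) for CS against NH in hippocampus (unadjusted p = 0.0787, limma adjusted p near 1). Psme1, a subunit of the 11S activator that opens the core, read 7.00, 7.35 and 7.47 in amygdala NH, 7.33, 7.38 and 7.76 in CS and 7.28, 7.47 and 7.67 in FC, with differences of 0.06 (SE 0.09) for both arms. Psme3, the nuclear activator, gave -0.10 (SE 0.11) for CS against NH and 0.13 (SE 0.10) for FC against CS there.

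Among the conjugating enzymes, Ube2z, which takes ubiquitin from the activating enzyme Uba6, read 7.13, 7.31 and 7.40 in amygdala NH, 7.24, 7.49 and 7.57 in CS and 7.34, 7.50 and 7.61 in FC. Batch 1, with no CS or FC array, is among these NH readings. Within batch 2 the means were 7.39 in CS, 7.46 in FC and 7.34 in NH, and both arms overlapped NH. In batch 3 they were 7.55, 7.61 and 7.40, the last from 1 array. Ube2z had fitted differences from NH of 0.15 (SE 0.05, p = 0.0138, limma adjusted p = 0.894) for FC and 0.09 (SE 0.06) for CS. In hippocampus its differences were -0.02 (SE 0.07) for CS and -0.07 (SE 0.07) for FC. Ube2s, which extends ubiquitin chains for the anaphase-promoting complex, read 7.01, 7.19 and 7.30 in hippocampus NH, 7.25, 7.32 and 7.42 in CS and 7.17, 7.36 and 7.39 in FC. Its NH readings include batch 7, which holds NH alone. The fitted differences from NH were 0.09 (SE 0.05) for CS and 0.09 (SE 0.05) for FC, with p of 0.0872 and 0.105 before adjustment (limma). In amygdala they were 0.03 (SE 0.06) and 0.00 (SE 0.06). Ube2n, the enzyme of lysine-63 chains, gave 0.12 (SE 0.10) for CS against NH in hippocampus, and its partner Ube2v1, which lacks the active cysteine, gave 0.06 (SE 0.08). Ube2a and Ube2b, the close pair that ubiquitinates histone H2B, gave 0.01 (SE 0.09) and -0.01 (SE 0.09) there. Ube2b gave -0.09 (SE 0.07) for FC against CS in amygdala. Ube2r2, which works with cullin ligases, gave -0.14 (SE 0.09) for FC against NH in hippocampus and 0.07 (SE 0.06) in amygdala. Ube2h gave 0.15 (SE 0.09) and 0.00 (SE 0.05), and Ube2f gave 0.07 (SE 0.05) and 0.05 (SE 0.06) in that comparison. Ube2k and Ube2d2a gave 0.03 (SE 0.06) and -0.08 (SE 0.11) in hippocampus, and 0.00 (SE 0.06) and 0.00 (SE 0.09) in amygdala. Ube2c and Ube2l6 were lower than NH in amygdala CS by fitted differences of -0.07 (SE 0.08) and -0.04 (SE 0.06), and Ube2e3 by -0.02 (SE 0.05). Ube2o, a large enzyme that also acts as a ligase, gave 0.10 (SE 0.05, unadjusted p = 0.0593, limma adjusted p near 1) for FC against CS in amygdala. Ube2e1 gave -0.18 (SE 0.16) for FC against CS in hippocampus and -0.07 (SE 0.14) for FC against NH in amygdala, and it ranged from 5.46 to 7.29 in hippocampus FC.

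Whether the arms differed more in 1 tissue than in the other was fitted directly, in 1 model of all 48 arrays that took them as independent, and any animal shared between the tissues is not modelled. No member passed for CS against NH, FC against NH or FC against CS, where 0 of 7242 probe sets passed in each (0%, 0% and 0%). The smallest p among members was 0.00601, for Psmb10 in CS against NH (0.22 higher in amygdala, SE 0.08, limma adjusted p = 0.998), followed for FC against NH by Ube2z at 0.0207 (0.22, SE 0.09, adjusted p = 0.981). The opposite signs of the Psm genes in the tissues are thus not shown to differ for any single gene.

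After the means of arm and batch were taken out, the subunits still followed one another across arrays. The median correlation between pairs of the 35 proteasome genes was 0.557 over 26 hippocampus arrays and 0.585 over 22 amygdala arrays, against 0.018 and 0.014 for all pairs of probe sets tested and 0.069 and 0.044 for probe sets of similar brightness. By role it was 0.723 and 0.746 in the alpha ring, 0.667 and 0.616 in the beta ring, 0.635 and 0.699 in the ATPase ring and 0.467 and 0.515 among the non-ATPase subunits. The Ube2 genes reached 0.114 and 0.176. Members share arrays, RNA and normalization, so these values describe the arrays and carry no test. Many other genes did the same: 18.4% of all probe sets tested in hippocampus and 15.9% in amygdala correlated with the subunit mean at 0.7 or more.

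Psmc3, an ATPase, followed the mean of the others at 0.927 and 0.905, and Psma3 at 0.921 and 0.909. Psmd2, like Psmd1 a scaffold subunit of the cap's base, ran opposite, at -0.685 and -0.577, whereas Psmd1 followed at 0.775 and 0.790. Their levels differed, with Psmd2 at percentiles 53.9 and 53.9 and Psmd1 at 92.6 and 93.3. Psma1, at percentiles 54.4 and 48.8, followed at 0.711 and 0.713. The part of signal level in these correlations was not tested. Ube2c, an enzyme of mitotic exit, ran opposite at -0.663 and -0.858, and Ube2l6, the conjugating enzyme for ISG15, at -0.635 and -0.895. Ube2f, which conjugates NEDD8, was at -0.512 and -0.305 and Ube2h at -0.370 and -0.300. Psmd9, an assembly chaperone, was near 0 at -0.031 and 0.022. Psme3 differed between tissues, at 0.608 in hippocampus and -0.132 in amygdala. Outside the symbol rule, Vcp, the unfoldase that delivers substrates to the proteasome, followed at 0.829 and 0.812, Sem1, a small cap subunit, at 0.811 and 0.784, and Pomp, the core's maturation factor, at 0.565 and 0.686. Nfe2l1, the transcription factor that raises subunit genes when the proteasome is inhibited, was at 0.319 and 0.284.

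**Figure D4:**
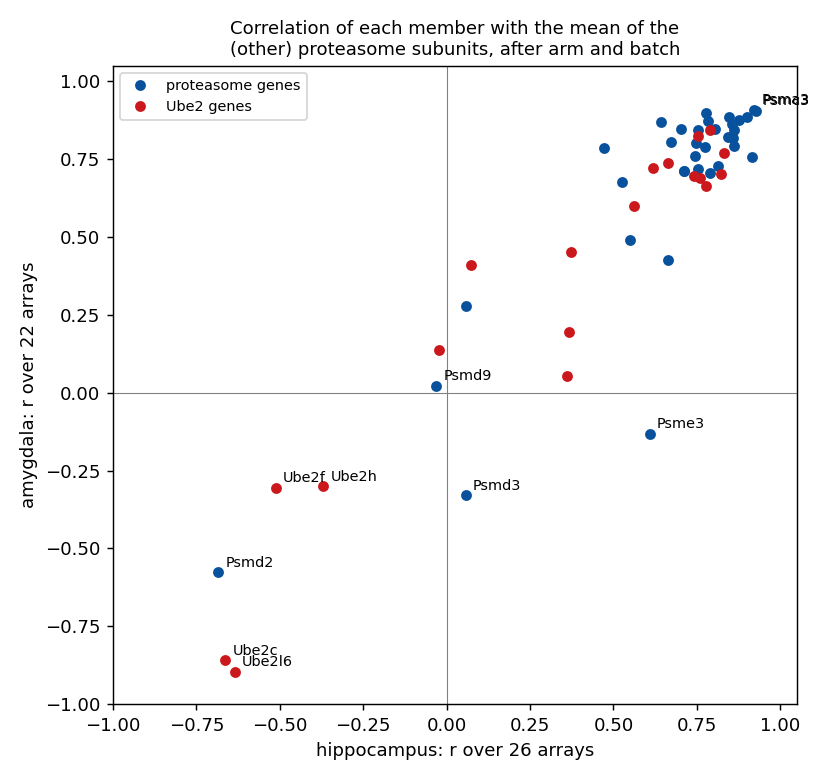
Correlation of each member with the mean of the other proteasome genes across arrays after arm and batch, in hippocampus (x axis, 26 arrays) and amygdala (y axis, 22 arrays); blue points are proteasome genes and red points Ube2 genes. Most blue points lie above 0.4 in both tissues, and Psmd2, Ube2c, Ube2l6, Ube2f and Ube2h lie below 0 in both.

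The subunit mean also moved with other measures of the arrays, of which 10 were set beside it in each tissue. The mean of the Ube2 genes correlated with it at 0.869 (Spearman 0.888, and 0.830 without the 2 outermost arrays) in hippocampus and 0.798 (0.781 and 0.673) in amygdala. The mean of 5 microglia markers did so at 0.810 (0.815 and 0.830) and 0.731 (0.670 and 0.594). Astrocyte markers gave 0.629 and 0.539, oligodendrocyte markers 0.657 and 0.131 and neuron markers -0.126 and 0.504, in hippocampus and amygdala. Without the 2 outermost arrays these were 0.549 and 0.356, 0.591 and 0.207, and 0.247 and 0.403. Vessel markers gave -0.318 and -0.150 (-0.474 and 0.086 without them), and blood markers -0.257 and 0.147 (-0.341 and 0.270). The Actb 3' to 5' difference gave 0.446 in hippocampus and 0.312 in amygdala, and 0.219 and 0.212 without the 2 outermost arrays. That of Gapdh gave 0.454 and 0.146, and 0.273 and 0.336 without them. Choroid plexus markers gave 0.082 in hippocampus and -0.649 in amygdala, and -0.152 and -0.440 without the 2 outermost arrays. Their mean includes Ttr and Kl, which were dim in amygdala, at mean percentiles of 18.8 and 21.9. Only 2 choroid plexus markers were above the filter there. In bulk tissue fewer cells of a type and less RNA per cell cannot be told apart, and the part of these measures in the subunit levels was not tested.

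Tissues were compared by the percentile of each probe set within its array, since their intensities sit at different levels (array medians of 76.5 to 80.8 in hippocampus and 52.3 to 56.1 in amygdala). No member separated the tissues over all arrays, against 2.34% of all 12422 probe sets higher in every amygdala array and 2.04% higher in every hippocampus array. Over NH arrays alone, 2 of 63 members (3.17%) lay higher in every hippocampus array, Psmb4 and Psmb5, both of the beta ring. The share over all probe sets was 4.56%, so this count lies below the background and is no result about the members. Psmb5 had a mean percentile of 92.8 (90.9 to 95.2) in hippocampus and 89.4 (87.7 to 91.9) in amygdala over all arrays. The member with the largest difference was Psme1, at 70.2 (66.1 to 77.9) in hippocampus and 81.2 (75.3 to 85.2) in amygdala, ranges that overlapped. Psmd9 (5.43 points), Ube2z (3.86), Psme3 (3.65), Ube2s (2.85) and Psmd3 (2.70) were also higher in amygdala on average. Psme4, the nuclear activator PA200, was lower there by a difference of -6.86 points, Ube2a by -5.96, Psma1 by -5.61, Psmd12 by -3.98, Psmc1 by -3.74 and Ube2g1 by -3.52.

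**Figure D5:**
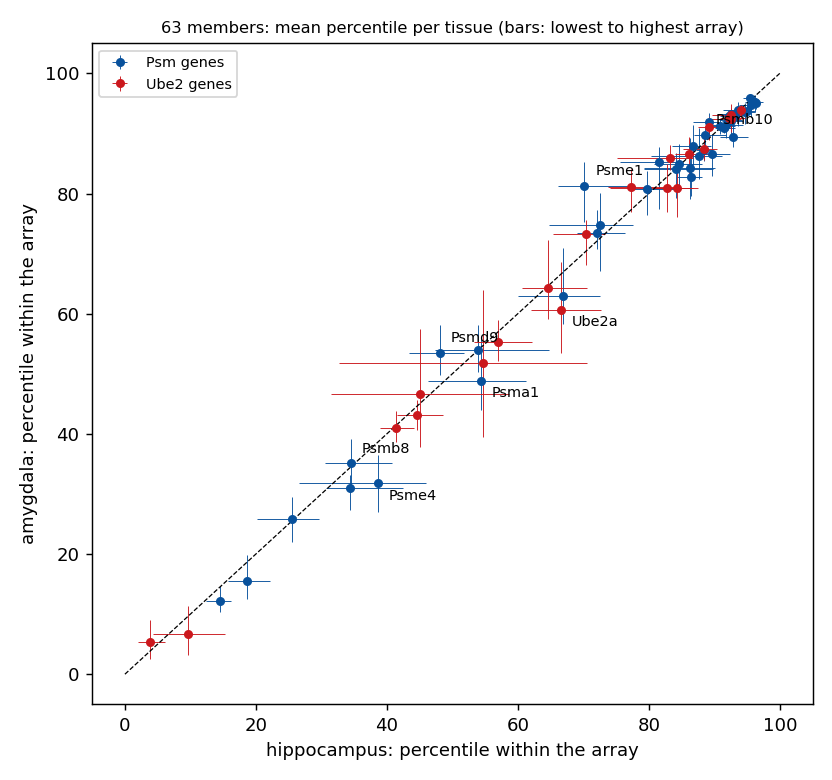
Mean within-array percentile of 63 members in hippocampus (x axis) and amygdala (y axis), with bars from the lowest to the highest array; blue points are Psm genes, red points Ube2 genes and the dashed line marks equality. Most members lie near the line, and Psme1, at 70.2 against 81.2, lies farthest above it.

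In the rest of the pathway, in each of the 6 comparisons 0 genes passed among 4 activating enzymes, 7 ubiquitin and ubiquitin-like genes, 70 ligase genes in hippocampus and 67 in amygdala, 29 deubiquitinases and 22 proteasome partners. At an unadjusted p under 0.05 and for FC against NH in hippocampus, 3 of 29 deubiquitinases (10.3%) and 3 of 70 ligase genes (4.29%) were found, against 2.27% of all probe sets. For FC against NH in amygdala it was 3 of 67 ligase genes (4.48%), 1 of 29 deubiquitinases (3.45%), 1 of 22 partners (4.55%) and 1 of 4 activating enzymes, against 5.15% of all. For CS and FC against NH in hippocampus, 40 and 36 of 70 ligase genes were higher (medians 0.01 and 0.00), against 50.5% and 49.7% of all probe sets. In amygdala 53 and 42 of 67 were higher (medians 0.04 and 0.02), against 53.8% and 55.2% of all.

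For 11 members with several probe sets above the filter, probe sets of the same gene differed in sign in 6, 5 and 5 genes in hippocampus (CS against NH, FC against NH and FC against CS) and in 6, 6 and 2 in amygdala. These include values given above. Another probe set gave -0.06 for Ube2o (FC against CS, amygdala) and -0.07 for Ube2h (FC against NH, hippocampus). For CS against NH in amygdala, another probe set gave -0.02 for Psmb5 and -0.02 for Ube2z. Both Ube2z probe sets were higher for FC against NH there (0.03 and 0.15).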

How the data were processed

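Total RNA of 48 samples was hybridised to single-colour arrays, and the deposited values are intensities that the authors summarised with RMA, per the submitters' processing notes; not given in the sources used here are its version and settings. The deposited intensity was taken to log2. Probe sets were named by the platform annotation, 66 control probe sets were left out, and 0 per-sample columns went unused. In each tissue the dimmest 40% by mean were left out and limma 3.58.1 (R 4.3.3; lmFit, eBayes) was fitted to all arms with batch as a fixed block, two-sided, with Benjamini-Hochberg adjustment over 7453 probe sets and a threshold of 0.05. The number of arrays limits the precision. The script was tested on simulated data. Members named with values were drawn from the 4 with the smallest p each way in each comparison, a fixed set of core members, the 6 with the largest percentile difference each way, and extremes of each role. Not every such value is printed. For FC against NH in amygdala, those of Ube2l6, Psmd2 and Ube2c, the lower members with the smallest p, are not given. Psmd13, Psmb4 and the members named for their correlation were chosen after their values were seen. The members and lists were chosen with earlier results of these data known. Alternatives changed the filter, batch term, normalization, added constant, arms fitted, array weights, probe set choice and arrays.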

Additional observations from a re-analysis of the deposited data

Results flagged for a closer look

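Groups of arrays were tested for 28 named members and for the means of the proteasome and Ube2 genes. In 16 of 180 groups (8.89%), all of single members, 1 array stood apart by Dixon's criterion at the 95% level. Chance flags about 1 in 20 independent groups. These groups pool batches and the genes share arrays, so that rate is only a rough guide. Values are log2 intensities, and the nearest array of the same arm is given beside each. The array apart was the highest for Psmb10 in hippocampus NH 100 at 8.84 (nearest 8.56), Psmb3 in hippocampus NH 100 at 9.65 (nearest 9.35), Psmd5 in hippocampus NH 111 at 8.96 (nearest 8.80), Psmd6 in hippocampus CS 39 at 9.30 (nearest 8.96) and Ube2c in amygdala NH 16768 at 6.82 (nearest 6.59). The array apart was the highest for Ube2e3 in hippocampus NH 63 at 6.11 (nearest 6.03), Ube2f in hippocampus NH 66 at 5.99 (nearest 5.89), Ube2h in hippocampus CS 85 at 8.27 (nearest 8.03), Ube2r2 in hippocampus CS 109 at 9.14 (nearest 8.89) and Ube2z in hippocampus CS 109 at 8.07 (nearest 7.70). The array apart was the lowest for Psmb10 in amygdala NH 16768 at 7.87 (nearest 8.01), Psmd2 in hippocampus CS 39 at 6.18 (nearest 6.47) and Ube2h in hippocampus NH 100 at 7.53 (nearest 7.97). The array apart was the lowest for Ube2s in amygdala NH 16768 at 6.61 (nearest 6.83), Ube2s in hippocampus FC 113 at 7.17 (nearest 7.32) and Ube2z in amygdala CS 21523 at 7.24 (nearest 7.46). The same arrays recur: NH 100 in hippocampus for Psmb10, Psmb3 and Ube2h, and NH 16768 in amygdala for Psmb10, Ube2c and Ube2s, and the cause was not tested.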

How the results depend on the processing

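Every count of members past the threshold was 0 under each alternative tried, with 3 exceptions, and was 0 whenever any single array was left out (lowest 0, highest 0). For FC against NH in amygdala, dropping the batch term gave 2 members (Psmb2 and Ube2z, with 2.83% of all probe sets called). Array weights gave 8 (Psmd13, Psmd2, Psmd3, Psmd7, Ube2l6, Ube2o, Ube2v1 and Ube2z, with 12.2% of all called), and the cause was not tested. These 8 did not share a direction. With array weights Psmd2 (-0.16) and Ube2l6 (-0.15) were lower in FC, while Ube2v1 (0.14) and Ube2z (0.19) were higher. Between tissues, NH arrays only gave 2 members in place of 0 (3.17%, against 4.56% of all probe sets higher in every hippocampus array). Without the batch term, the median of the Psm genes for CS against NH was 0.00 in hippocampus and 0.08 in amygdala, and with array weights the median in hippocampus turned to 0.01 for CS and 0.03 for FC against NH. Values of single named members changed sign in 485 of 6191 recomputed values. Of the alternatives, 26 of 39 in hippocampus and 22 of 35 in amygdala left out 1 array and kept all others. The share of sign changes therefore says little about the choice of model. No paired analysis was possible because within a tissue the arms share no replicate number. Depth does not apply to arrays, and 4 NH arrays per tissue in shared batches limit each difference from NH.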
